A study of Mus musculus with 8 samples.

Results

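The genes of de novo ceramide synthesis, and Fam57b of the deleted 16p11.2 segment, were followed across the striatum of 8 mice. The 9 genes were chosen by name from the 55032 genes of the count table, with earlier results of these data known. They are Sptlc1 and Sptlc2, Kdsr, the ceramide synthases Cers1, Cers4, Cers5 and Cers6, Degs1, and Fam57b. Cers2 is no member and was read with the genes around the pathway. The authors reported it as lower in these same libraries, by qRT-PCR and, as protein, by Western blotting. Each genotype, WT and 16p11.2+/-, was represented by 4 females on a C57BL/6 background, whose striatum was dissected at postnatal day 60. The 16p11.2+/- mice, named DF in the sample labels, carry a heterozygous deletion of the mouse counterpart of human 16p11.2 in every cell, and the labels name no treatment for either group. Each mouse gave 1 RNA library, with 15125051 to 16523429 reads counted on genes. The test with edgeR kept 18294 genes, and all 9 members were among them.

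Ceramide is the backbone on which sphingomyelin and the galactolipids of myelin are built. In the de novo pathway, serine palmitoyltransferase joins serine to palmitoyl-CoA in the endoplasmic reticulum, a reductase makes the sphingoid base, a ceramide synthase attaches a fatty acyl chain to it, and a desaturase turns the resulting dihydroceramide into ceramide. The ceramide synthases differ in the acyl chain they prefer and share the TLC domain, a membrane domain that the protein of Fam57b also carries. Striatum is made mostly of medium spiny neurons, crossed by myelinated fibre bundles rich in oligodendrocytes.

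Of the 9 members, only Fam57b had an unadjusted edgeR p under 0.05, and it was lower in 16p11.2+/- striatum. Cers2, which was left out of the members, was also lower there, with an unadjusted edgeR p of 0.011. Among all genes tested 4.32% had such a p, with 2.37% lower and 1.95% higher in 16p11.2+/- mice. After adjustment no member passed, in either direction, where the share was 0.109% over all genes tested (0.0929% for genes lower in 16p11.2+/- mice). The 2 genotypes overlapped in FPKM for every member, whereas they did not overlap for 2.83% of all genes tested. A negative log2 fold change, which stands for a lower level in 16p11.2+/- mice, was found for 5 members, and for 51.8% of all genes tested. Over the 8 members outside the deleted segment the median log2 fold change was -0.0073, beside -0.0093 over all genes tested.

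The libraries were not alike in the tissue they held. All 7 genes of a thalamus list were higher in WT-1063, DF-1018, DF-1037 and DF-1062 than in each of the other 4 mice, with a mean log2 CPM of 5.84 to 6.75 against 3.39 to 3.62. All 9 medium spiny neuron genes, Drd1, Drd2 and Ppp1r1b among them, were lower in DF-1037 and DF-1062 than in the other 6 mice (mean log2 CPM of 6.71 and 6.28, against 8.07 to 8.83), and none of them was at 0 in any mouse. The mean of 10 oligodendrocyte genes was lower in every 16p11.2+/- mouse than in every WT mouse, by 0.40 log2 CPM (exact permutation test, two-sided, p = 0.0286). This mean is the oligodendrocyte score used below. Since it separated the genotypes, a fit with it as a covariate cannot tell genotype from oligodendrocyte content. In bulk tissue, fewer cells of a type and less RNA per cell cannot be told apart.

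The RefSeq promoter windows of Fam57b and of the enzyme genes are shown first, because those of Fam57b held fewer CpG dinucleotides than those of the enzyme genes. RefSeq windows of 300 bases on GRCm38.p6, from 250 bases before to 50 bases after the annotated start, were matched to all 9 members. Fam57b, listed in RefSeq under the symbol Tlcd3b, has 3 such windows, and the one printed lies at chr7:126816635-126816934 on the forward strand. The gene model of Fam57b used for positions below starts upstream, at 126797668, and none of the 3 windows covers that start. The windows of Cers4, Cers5 and Degs1 likewise do not cover the starts of their gene models. Kdsr and Cers1, the members whose levels moved most alike from mouse to mouse, have windows at chr1:106759693-106759992 on the reverse strand and at chr8:70315525-70315824 on the forward strand. CpG dinucleotides are in capitals.
Fam57b: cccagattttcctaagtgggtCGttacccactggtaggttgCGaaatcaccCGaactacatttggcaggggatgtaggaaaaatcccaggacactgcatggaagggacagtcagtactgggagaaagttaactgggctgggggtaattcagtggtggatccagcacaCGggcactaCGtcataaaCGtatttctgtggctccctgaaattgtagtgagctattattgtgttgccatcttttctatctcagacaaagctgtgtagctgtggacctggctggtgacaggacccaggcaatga
Kdsr: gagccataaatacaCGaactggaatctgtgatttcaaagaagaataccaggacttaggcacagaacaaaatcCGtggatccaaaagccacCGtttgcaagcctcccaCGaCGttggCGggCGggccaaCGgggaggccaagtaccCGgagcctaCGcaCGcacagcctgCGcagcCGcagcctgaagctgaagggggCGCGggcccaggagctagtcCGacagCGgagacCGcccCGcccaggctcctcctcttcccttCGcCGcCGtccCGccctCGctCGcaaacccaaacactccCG
Cers1: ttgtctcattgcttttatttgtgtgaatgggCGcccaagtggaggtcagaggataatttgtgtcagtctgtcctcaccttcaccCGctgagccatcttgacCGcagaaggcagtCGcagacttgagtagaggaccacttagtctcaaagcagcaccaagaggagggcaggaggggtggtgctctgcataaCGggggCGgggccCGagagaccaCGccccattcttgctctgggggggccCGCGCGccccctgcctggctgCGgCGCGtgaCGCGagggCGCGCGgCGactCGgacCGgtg
The printed Fam57b window held 6 CpG, 49.3% G and C, and a CpG content of 0.336 relative to that expected from its bases. The other Fam57b windows held 6 CpG with 58.3% G and C and a relative CpG content of 0.236, and 1 CpG with 53.3% G and C and a relative CpG content of 0.052. In the windows of the 8 enzyme genes there were 14 to 28 CpG, 59.3 to 70% G and C, and a relative CpG content of 0.46 (Cers4) to 0.9 (Kdsr). Over the 32851 windows of all genes the median was 52.7% G and C with a relative CpG content of 0.384, so that all 3 Fam57b windows lay below the median in relative CpG content and all 8 enzyme genes above it. In G and C alone the printed Fam57b window was below the median, and the other two were above it, as were all 8 enzyme genes. The GC box letters GGGCGG, read on both strands, occur in 6 of the 8 enzyme windows and in 35.7% of all windows. None of the 3 RefSeq windows of Fam57b holds them. CCAAT, read on both strands, occurs in the windows of Sptlc1, Sptlc2 and Cers6 and in 37.4% of all windows. TATAAA, also read on both strands, is absent from the 8 enzyme windows and present in 1 of the 3 Fam57b windows and in 13.6% of all windows.

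In WT striatum Degs1 stood above a group of 8 members of moderate level. Levels of different genes were compared as FPKM, which is per length of exon sequence. Degs1 was highest at 33.6 ± 3.62 (SD, n = 4 mice), followed by Cers5 at 11.5 ± 0.955, Cers1 at 10.5 ± 1.34 and Sptlc1 at 9.41 ± 0.570. Fam57b stood in the middle at 7.33 ± 0.884. Kdsr (7.01 ± 0.536), Cers6 (6.51 ± 1.18), Cers4 (6.36 ± 0.847) and Sptlc2 (5.60 ± 1.98) closed the order. In 16p11.2+/- striatum Degs1, Cers5, Cers1 and Sptlc1 held the same ranks, and Fam57b moved from rank 5 to rank 9 with an FPKM of 4.62 ± 1.46 (SD, n = 4). The authors placed Fam57b close to background in both genotypes in their RNAseq data, and did not detect it by qRT-PCR. In the deposited FPKM its mean over all mice was above that of 60.2% of the genes tested.

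The ratio of neighbours in this order was tested within mice over both genotypes. The order came from the WT mice that were also tested, so that it was not set beforehand. Degs1 exceeded Cers5 in 8 of 8 mice, with a median ratio of 2.94, and Sptlc1 exceeded Fam57b in 8 of 8 mice, with a median ratio of 1.46 (exact sign-flip test, two-sided, adjusted p = 0.0313 over 8 pairs for both). The latter ratio was 1.14 to 1.42 in WT mice (median 1.30) and 1.51 to 2.67 in 16p11.2+/- mice (median 2.27), and 4 mice of 1 genotype alone could not go below p = 0.125 in the exact test. The other 6 pairs of neighbours did not pass, with adjusted p of 0.167 to 0.813 in the exact test. With the length of the longest coding transcript in place of the whole exon sequence, Fam57b stood at rank 4 and Cers1 at rank 5 in WT mice, and 3 pairs passed, Sptlc1 and Fam57b not among them (adjusted p = 0.0625 in the exact test).

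**Figure D1:**
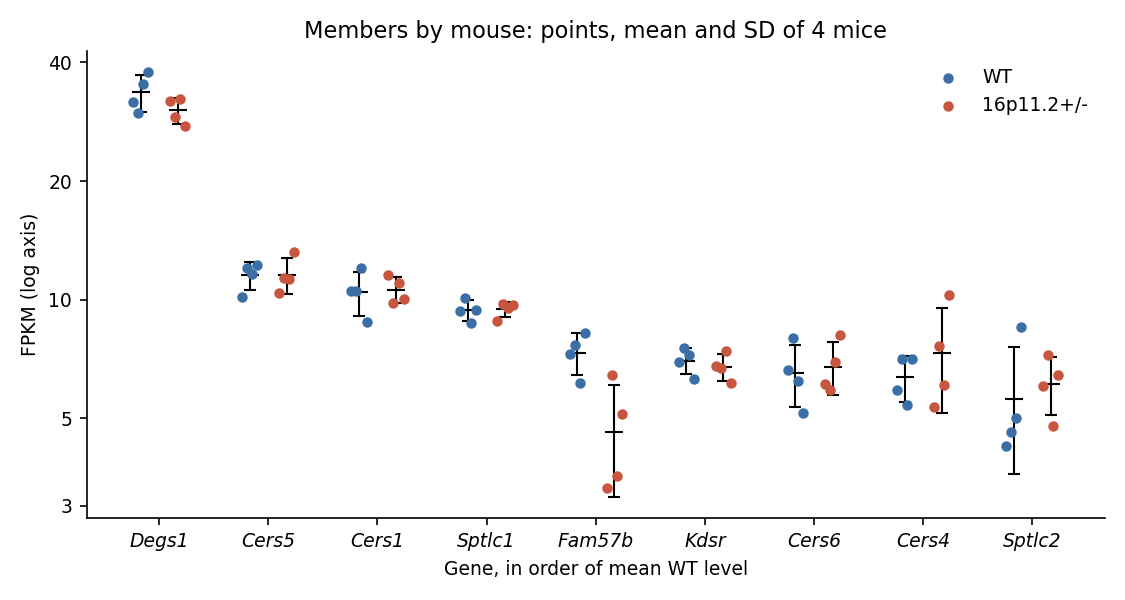
FPKM of the 9 members on a log axis, in order of their WT mean, with 1 point per mouse (blue, WT; red, 16p11.2+/-) and the mean and SD of 4 mice in black. Degs1 lies above all other members at 27.7 to 37.8, and Fam57b has, on this axis, the widest gap between the group means (7.33 and 4.62).

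Sptlc1 and Sptlc2 encode the pair of large subunits of serine palmitoyltransferase, the enzyme that commits serine to sphingolipids. In this and the following sentences the mice are given in the order WT-1015, WT-1041, WT-1061 and WT-1063, then DF-1018, DF-1037, DF-1059 and DF-1062. Sptlc1 (ENSMUSG00000021468, chromosome 13 from 53332748 to 53377397, reverse strand, GRCm38) had an FPKM of 9.39, 10.1, 8.72 and 9.41 in WT and 8.82, 9.75, 9.55 and 9.68 in 16p11.2+/- mice. The groups lay on top of each other. Its log2 fold change was -0.01 (standard error 0.07, 95% interval -0.18 to 0.15, edgeR adjusted p = 0.965). Sptlc1 was also the steadiest member: its SD within genotypes was 0.065 log2 CPM, which was lower than that of all but 2.64% of the genes tested.

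Sptlc2, which carries the catalytic lysine of the enzyme (ENSMUSG00000021036, chromosome 12 from 87305058 to 87388355, reverse strand), was the least steady member. Its FPKM was 4.24, 4.62, 5 and 8.54 in WT and 6.04, 7.23, 4.77 and 6.44 in 16p11.2+/- mice, with a within-genotype SD of 0.36 log2 CPM. The 4 highest values were those of WT-1063, DF-1037, DF-1062 and DF-1018, the mice of high thalamus score, and DF-1059 lay among the other WT mice. The log2 fold change between genotypes was 0.11 (standard error 0.22, 95% interval -0.40 to 0.62, edgeR adjusted p = 0.926). It was -0.15 with the thalamus score as a covariate. Without WT-1063 it was 0.38 (95% interval 0.06 to 0.70, past the unadjusted threshold of 0.05, edgeR adjusted p = 0.571), a fit that holds no WT mouse of high thalamus score.

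Kdsr encodes the reductase that turns the product of serine palmitoyltransferase into dihydrosphingosine (ENSMUSG00000009905, chromosome 1 from 106720459 to 106759727, reverse strand). Its FPKM was 6.97, 7.55, 7.24 and 6.29 in WT and 6.77, 6.70, 7.42 and 6.14 in 16p11.2+/- mice. Each group held a mouse near 6 and a mouse above 7, and the log2 fold change was -0.07 (standard error 0.10, 95% interval -0.29 to 0.15, edgeR adjusted p = 0.888).

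Cers1 and Cers4 encode the ceramide synthases that prefer stearoyl and somewhat longer chains, and Cers1 is known as the synthase of neurons. Cers1 (ENSMUSG00000087408, chromosome 8 from 70315775 to 70331592, forward strand) had an FPKM of 10.5, 10.5, 12.03 and 8.76 in WT and 11.5, 9.82, 11.0 and 10.02 in 16p11.2+/- mice. On the log2 scale the fold change was 0.00029 (standard error 0.12, 95% interval -0.27 to 0.27, adjusted edgeR p of at least 0.99). The level of Cers1 is uncertain, since Gdf1 and Upf1 cover 42.7% of its exon bases, 42.5% lying under genes of the same strand.

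Cers4 (ENSMUSG00000008206, chromosome 8 from 4493026 to 4531680, forward strand) had an FPKM of 5.90, 7.06, 5.39 and 7.08 in WT and 5.36, 7.63, 6.07 and 10.3 in 16p11.2+/- mice. DF-1062 and DF-1037, the mice with the lowest medium spiny neuron scores, were the highest for Cers4, and the mice with the highest such scores, WT-1061 and DF-1018, were the lowest. Cers1 ran the other way, with its highest values in WT-1061 and DF-1018. The log2 fold change of Cers4 was 0.18 (standard error 0.18, 95% interval -0.23 to 0.58, edgeR adjusted p = 0.868), and with the medium spiny neuron score as a covariate it was -0.10. Genes of the opposite strand cover 8.97% of its exon bases.

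Cers5 and Cers6 encode the synthases that prefer palmitoyl chains. Cers5 (ENSMUSG00000023021, chromosome 15 from 99734881 to 99772885, reverse strand) had an FPKM of 10.2, 12.1, 11.6 and 12.3 in WT and 10.4, 11.3, 11.3 and 13.2 in 16p11.2+/- mice, and its log2 fold change was -0.02 (standard error 0.08, 95% interval -0.21 to 0.17, edgeR adjusted p = 0.963). Cers6 (ENSMUSG00000027035, chromosome 2 from 68861441 to 69114282, forward strand) had 6.64, 8.02, 6.22 and 5.17 in WT and 6.11, 5.89, 6.94 and 8.15 in 16p11.2+/- mice, with a log2 fold change of 0.03 (standard error 0.14, 95% interval -0.29 to 0.35, edgeR adjusted p = 0.964). In both genes the highest and the lowest mice of each genotype enclosed most of the other genotype.

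Degs1 encodes the dihydroceramide desaturase of the last step (ENSMUSG00000038633, chromosome 1 from 182275772 to 182282804, reverse strand). Its FPKM was 31.8, 29.7, 35.2 and 37.8 in WT and 32.0, 29.1, 32.3 and 27.7 in 16p11.2+/- mice. The lowest values, in DF-1062 and DF-1037, were below every WT mouse, and the highest, in WT-1061 and WT-1063, were above every 16p11.2+/- mouse. The log2 fold change was -0.17 (standard error 0.10, 95% interval -0.41 to 0.07, edgeR p = 0.135 unadjusted and 0.859 adjusted), and the difference in mean FPKM did not pass the exact permutation test (p = 0.171, two-sided). With the oligodendrocyte score as a covariate the log2 fold change was 0.016.

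For each of the 8 members outside the segment the 95% interval excluded a log2 fold change of -1, the size that a halved dose would give. The precision differed between members: the interval was narrowest for Sptlc1 (-0.18 to 0.15) and widest for Sptlc2 (-0.40 to 0.62).

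**Figure D2:**
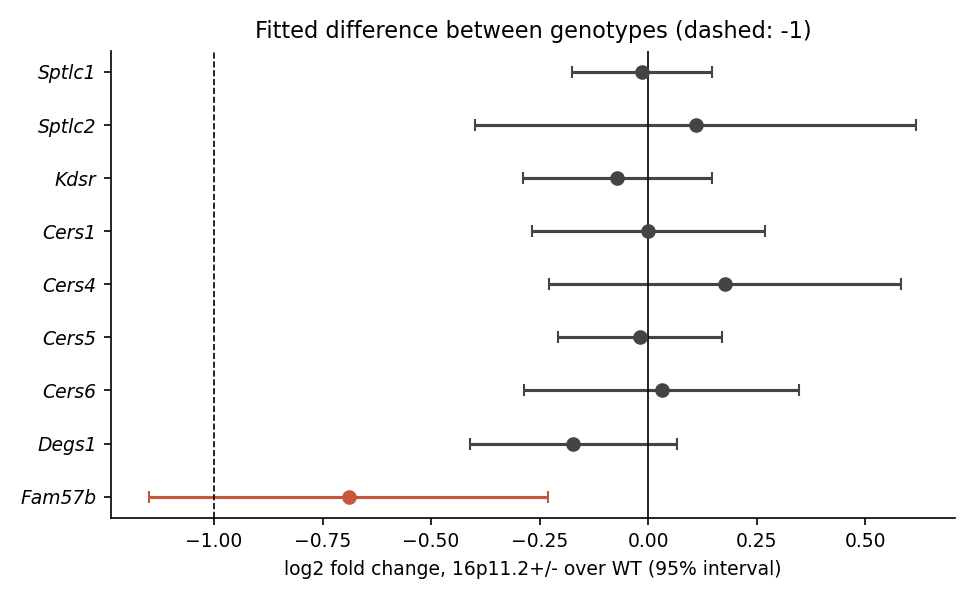
Log2 fold change of each member in 16p11.2+/- over WT striatum with its 95% interval, from edgeR on 4 mice a group. The interval of Fam57b (red, -1.15 to -0.23) covers the dashed line at -1 and not 0, and the other 8 intervals cover 0 and not -1.

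Fam57b (ENSMUSG00000058966, chromosome 7 from 126797668 to 126830219, forward strand) has 7 annotated transcripts, 5 of them coding. It had 433, 464, 396 and 523 counts in the WT mice and 200, 390, 229 and 333 in the 16p11.2+/- mice. As FPKM these are 7.28, 7.70, 6.14 and 8.22 against 3.33, 6.46, 3.58 and 5.12. DF-1018 and DF-1059 were far below every WT mouse, DF-1062 was between, and DF-1037 lay above the lowest WT mouse. The coefficient of variation was 31.5% in 16p11.2+/- mice and 12.1% in WT mice. The log2 fold change of -0.69 (standard error 0.20, 95% interval -1.15 to -0.23) is a level of 0.620 of WT, with an interval from 0.451 to 0.852. The edgeR p was 0.00799 unadjusted and 0.859 adjusted over all genes, and the exact permutation test on FPKM gave p = 0.0571 (two-sided, where 0.0286 is the smallest possible).

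The 16p11.2+/- mice that were high in Fam57b, DF-1037 and DF-1062, were those with the lowest medium spiny neuron scores. In WT mice, too, Fam57b fell in the order of that score, from 5.02 log2 CPM in WT-1063 (score 8.07) through 4.93 in WT-1041 (8.22) and 4.88 in WT-1015 (8.68) to 4.63 in WT-1061 (8.83). With the score as a covariate Fam57b was at -0.98 on the log2 scale (standard error 0.14, 95% interval -1.31 to -0.65, edgeR adjusted p = 0.123). Without DF-1037 and DF-1062 it was -1.08 (95% interval -1.39 to -0.76, edgeR adjusted p = 0.111), a fit that also removes the highest 16p11.2+/- values of Fam57b. With the thalamus score as a covariate it was -0.88 (edgeR adjusted p = 0.839), and without the 4 mice of high thalamus score, which leaves DF-1059 as the only 16p11.2+/- mouse, -0.99 (edgeR adjusted p = 0.566).

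**Figure D3:**
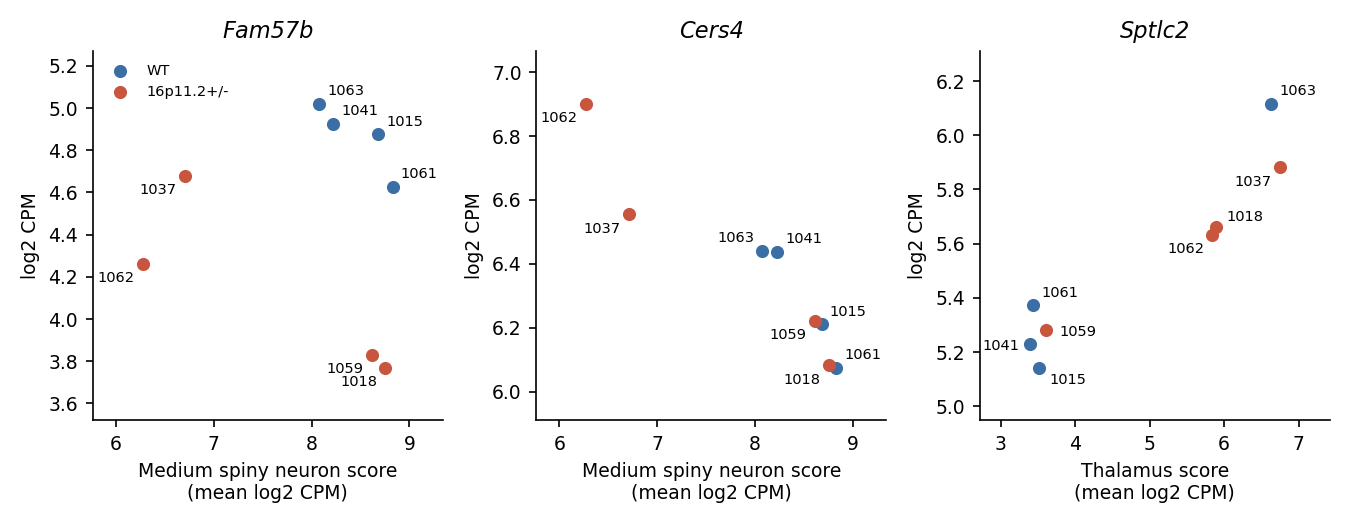
Log2 CPM of Fam57b and Cers4 against the medium spiny neuron score and of Sptlc2 against the thalamus score, with 1 labelled point per mouse (blue, WT; red, 16p11.2+/-) and scores as mean log2 CPM of the marker genes. DF-1037 and DF-1062, at scores of 6.71 and 6.28, stand apart from the 6 other mice and are the highest 16p11.2+/- mice for Fam57b and the highest of all for Cers4. Sptlc2 is highest in the 4 mice with a thalamus score of at least 5.84.

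The segment from Slx1b to Sept1, chromosome 7 from 126689468 to 127233130, holds 33 tested genes beside Fam57b. The log2 fold change was below 0 for all 33, at a median of -0.97 and a range from -1.29 to -0.25, and 17 of them had an adjusted edgeR p under 0.05. Fam57b was 0.28 above that median, and 5 of the 33 genes were higher still. To ask whether Fam57b moved with its segment, its log2 CPM was set against the mean of the other segment genes in each mouse. It exceeded that mean by 1.07, 1.12, 0.82 and 1.39 in WT and by 0.98, 1.71, 1.06 and 1.48 in 16p11.2+/- mice. DF-1037 and DF-1062 were highest here as well. The means were 1.10 ± 0.24 and 1.31 ± 0.35 (SD, n = 4), a difference of 0.21 that did not exceed the spread between mice (exact permutation test, two-sided, p = 0.4).

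Among the tested genes, the neighbours on either side of Fam57b are Aldoa, the glycolytic aldolase, and Doc2a, a calcium sensor of synaptic vesicle release. Aldoa (ENSMUSG00000030695) overlaps 0.635% of the exon sequence of Fam57b on the opposite strand and fell from an FPKM of 301 to 153 (log2 fold change -0.997, standard error 0.08, edgeR adjusted p = 0.00169). A second gene model of the same symbol (ENSMUSG00000114515), which lies within the span of Fam57b on the opposite strand, had a log2 fold change of -0.95 with 5 to 18 counts per mouse (standard error 0.38, edgeR adjusted p = 0.859). For Doc2a the log2 fold change was -0.99 with 6 to 99 counts per mouse (standard error 0.63, edgeR adjusted p = 0.859). Whether the counting used strand is not given in the sources used here, so that reads in the overlap could not be assigned.

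**Figure D4:**
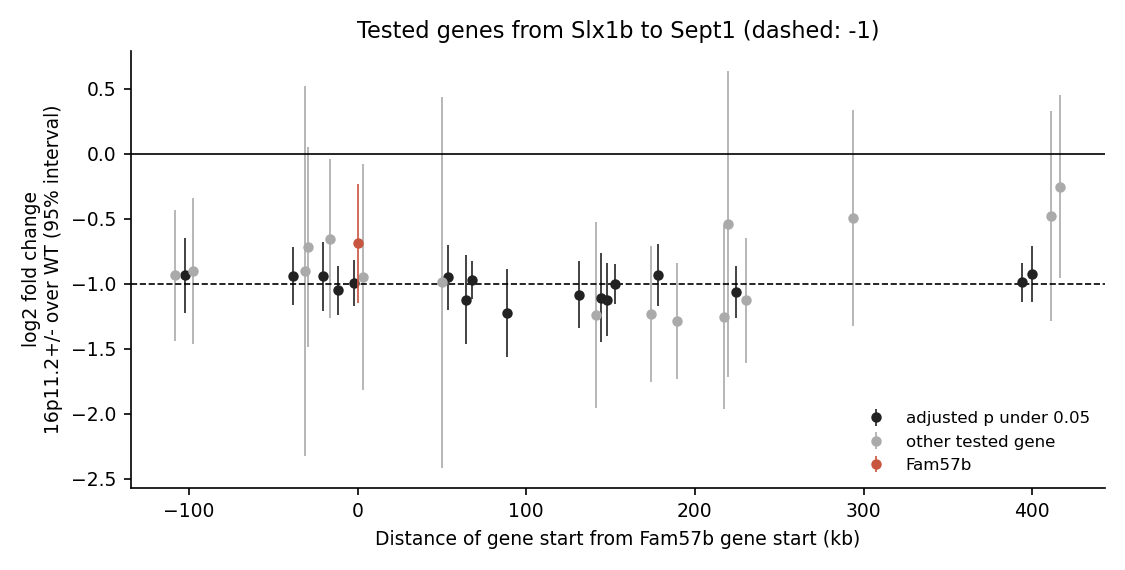
Log2 fold change with 95% interval of the 34 tested genes from Slx1b to Sept1, against the distance in kb of the gene start (its lowest coordinate) from that of Fam57b. Black points are the 17 genes with an adjusted p under 0.05, grey points the other genes and the red point Fam57b at -0.69, above the median of -0.97 of the others.

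The ceramide synthases were also compared within each mouse, as shares of the summed FPKM of all 6 family members. The sum was 58.7 ± 2.35 in WT and 56.3 ± 3.57 in 16p11.2+/- mice (SD, n = 4, exact permutation test, two-sided, p = 0.371). Cers1 and Cers4 together held 28.6% ± 1.30 of it in WT and 31.8% ± 1.10 in 16p11.2+/- mice. Every 16p11.2+/- mouse (30.8% to 33.2%) was above every WT mouse (26.8% to 29.7%), with an exact permutation p of 0.0286, which is the smallest possible, and of 0.0857 after adjustment over the 3 classes. The share of Cers5 and Cers6 was 30.7% ± 1.93 and 32.5% ± 1.90 (exact permutation test, p = 0.229). Cers2, which is no member and makes the very long chain ceramides of myelin, held 40.3% ± 2.85 in WT and 35.5% ± 2.76 in 16p11.2+/- mice (exact permutation test, p = 0.0571, adjusted 0.0857). Shares sum to 100, so that the 3 values are not independent, and Cers1 carries the overlap given above. The sum holds Cers2, which the authors had reported as lower in these same libraries. A rise of the other shares was thus partly set in advance, and a share without Cers2 was not tested. The FPKM of Cers1 and of Cers4 taken singly overlapped between the genotypes.

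**Figure D5:**
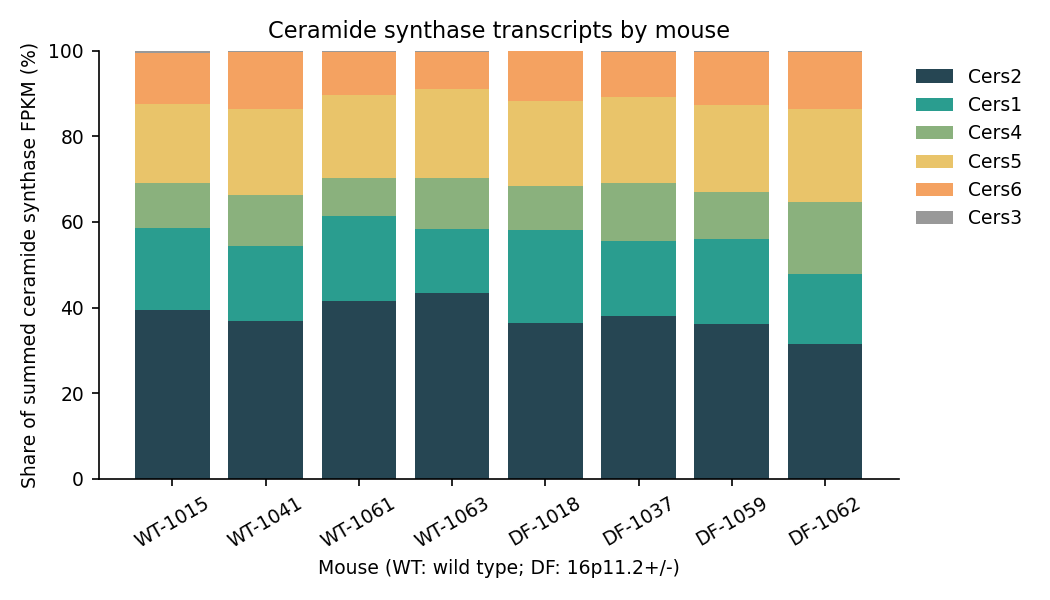
Share of the summed ceramide synthase FPKM held by each synthase, in percent, stacked for each of the 8 mice. The Cers2 block is 36.8% to 43.5% in WT and 31.5% to 38.0% in 16p11.2+/- mice, and Cers3 is under 1% in the mean of either group.

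The genes around the pathway were read in 5 lists of 38 genes, of which 34 were tested. Unadjusted edgeR p was under 0.05 for 4 genes, all lower in 16p11.2+/- mice (11.8%, against 2.37% of all genes tested). None was higher, and none had an adjusted p under 0.05. Cers2, reported by the authors as lower in these same libraries, was among the 4. The lists were drawn up with earlier results of these data known, so that the 11.8% was partly set in advance. The median over the 34 genes was -0.05, beside -0.0093 over all genes tested. The oligodendrocyte score was also lower in every 16p11.2+/- mouse, and with it as a covariate 1 of the 34 genes had an unadjusted edgeR p under 0.05, in a fit where that share over all genes tested was 2.36%.

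Among the subunits and regulators of serine palmitoyltransferase none of the 5 tested genes had an unadjusted p under 0.05. Sptssb, a small subunit that shifts the enzyme to longer acyl-CoA, had an FPKM of 1.05, 0.50, 0.83 and 5.18 in WT and 3.52, 6.74, 1.35 and 4.01 in 16p11.2+/- mice. As for Sptlc2, the mice of high thalamus score were the highest, and its log2 fold change was 1.02 (standard error 0.74, edgeR adjusted p = 0.859), or 0.35 with that score as a covariate. Leaving out 1 mouse moved it to 0.62 (without DF-1037) or to 2.26 (without WT-1063, 95% interval 1.02 to 3.51, past the unadjusted threshold, edgeR adjusted p = 0.511). Sptssa, the other small subunit, was at -0.19 on the log2 scale (standard error 0.09), and the ORMDL proteins, which restrain the enzyme when ceramide is plentiful, had -0.07 (Ormdl1), -0.07 (Ormdl2) and -0.14 (Ormdl3). Sptlc3, the alternative large subunit, had 3 to 20 counts per mouse and was not tested.

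Of the other synthase and desaturase genes, Cers2 had an FPKM of 21.8, 22.0, 25.2 and 25.7 in WT and 19.1, 21.3, 20.1 and 19.3 in 16p11.2+/- mice, without overlap. Its log2 fold change of -0.27 (standard error 0.08, edgeR adjusted p = 0.859) was -0.11 with the oligodendrocyte score as a covariate. Degs2, a desaturase that also hydroxylates, was at 0.15 on the log2 scale (standard error 0.16), and Cers3 was too low to be tested.

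Among the TLC domain relatives, Fam57a, the paralogue of Fam57b, differed by a log2 fold change of 0.03 (standard error 0.12, 95% interval -0.23 to 0.29) with an FPKM of 2.63 ± 0.289 in WT and 2.73 ± 0.205 in 16p11.2+/- mice (SD, n = 4). Cln8, an endoplasmic reticulum protein whose loss causes a neuronal ceroid lipofuscinosis, had an FPKM of 4.89, 4.72, 5.44 and 5.34 in WT and 4.33, 4.18, 4.56 and 4.30 in 16p11.2+/- mice, without overlap (log2 fold change -0.25, standard error 0.08, edgeR adjusted p = 0.859). With the oligodendrocyte score as a covariate Cln8 was at -0.14, with a 95% interval from -0.39 to 0.12. It was 1 of 8 tested genes of this list past the unadjusted threshold.

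Among 12 tested genes of the fatty acid elongation cycle, Elovl7 alone had an unadjusted p under 0.05. Its FPKM was 8.40, 6.02, 9.20 and 19.2 in WT and 5.22, 7.03, 4.93 and 4.74 in 16p11.2+/- mice, so that DF-1037 overlapped the WT group and WT-1063 was far above all others. The fitted log2 fold change was -0.98 (standard error 0.33, edgeR adjusted p = 0.859), and without WT-1063 it was -0.55. For all 7 genes of serine synthesis and the serine incorporators the log2 fold change was below 0, at a median of -0.12. Psat1, a transaminase of serine synthesis, was the only one past the unadjusted threshold, with an FPKM of 38.0, 41.4, 44.0 and 36.7 in WT and 34.95, 34.0, 35.1 and 27.8 in 16p11.2+/- mice (log2 fold change -0.30, standard error 0.11, edgeR adjusted p = 0.859), or -0.03 with the oligodendrocyte score as a covariate. It missed the unadjusted threshold without DF-1062 (-0.19), without WT-1041 (-0.28) and without WT-1061 (-0.24).

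Likeness of pattern was measured as the Pearson r of log2 CPM over the 8 mice, which include both genotypes and differ in tissue content, so that r is given as a description. Within the members, Kdsr and Cers1 were most alike (r = 0.72, Spearman's rho = 0.62), and Cers1 and Cers4 were the most opposed (r = -0.78, rho = -0.90). Of all genes tested, the most like was Zranb3 for Sptlc1 (r = 0.948), Tnc for Sptlc2 (0.985), Dtx3 for Kdsr (0.982), Smim20 for Cers1 (0.985), Ppm1m for Cers4 (0.992), Pex6 for Cers5 (0.960), Kpna3 for Cers6 (0.979) and Gm15697 for Degs1 (0.972). Fam57b was most like Gm9874 (r = 0.970), Srsf10 (0.960) and Srd5a1 (0.949), none of which lies in the deleted segment.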

How the data were processed

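Total RNA of the striatum of each mouse was sequenced by the authors with paired ends. After trimming and mapping with Hisat2, the authors obtained a count per gene with Htseq-count. Raw counts, and FPKM derived from them, were deposited for each gene and mouse. The submitters' processing notes name Bowtie 0.12.2 and the builds mm8 and mm9. The build, annotation and strand setting behind the deposited counts are not settled by these sources. The lengths implied by FPKM were within 1 base of the exon lengths of GENCODE M21 (GRCm38) for 95.7% of 17562 genes and equal for all members, so positions were taken from it. The deposited tables of the authors' own comparison, with fold changes and p-values, and of binned FPKM were not used.

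The quasi-likelihood test of edgeR 4.0.16 (R 4.3.3) was applied to the counts with genotype as the only term, TMM factors and the filterByExpr defaults (minimum count 10, total 15), with Benjamini-Hochberg adjustment over all 18294 genes tested and a threshold of 0.05. Exact permutation tests, two-sided, on FPKM and shares ran over the 70 assignments of 8 mice, and neighbouring members were compared with exact sign-flip tests. Marker scores are the mean log2 CPM (prior count 2) of listed genes with at least 1 CPM. The code was tested on simulated counts. Nothing in the labels ties mice to litters, and p-values measure the spread between these mice. The members, lists, tests and alternatives were chosen with earlier results of these data known. The rule for named genes took all members, each listed gene past unadjusted p 0.05 and 9 further pathway genes whatever their values. It also took the most like genes and the tested neighbours of Fam57b. The alternatives used limma 3.58.1 (voom on counts, trend on log2 FPKM plus 1 or 0.1), DESeq2 1.42.0, library totals, RLE factors, other filters, score covariates and mice left out.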

Additional observations from a re-analysis of the deposited data

How the results depend on the processing

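No member had an adjusted p under 0.05 in any of the 13 alternative fits with edgeR, DESeq2 or limma or in the 8 fits that left out a mouse. Fam57b stayed negative in all of them, from -1.08 to -0.60 (adjusted p 0.111 to 0.9997) and, with each mouse left out, from -0.90 to -0.56 (adjusted p 0.394 to 0.999). The medium spiny neuron covariate, the fits without DF-1037 and DF-1062 or without the 4 mice of high thalamus score, and the longest transcript length were added after seeing the data. The last sample set leaves 1 16p11.2+/- mouse, assumed to vary like the WT mice. No paired analysis was possible because the labels do not pair WT mice with 16p11.2+/- mice.

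The other members lie near 0, and their sign depended on the setting. With library totals the log2 fold change was 0.0064 for Sptlc1 and 0.0043 for Cers5, with limma-trend at a pseudocount of 0.1 it was 0.0072 and 0.0027, and at a pseudocount of 1 it was 0.0065 and 0.0026. With at least 10 counts in every mouse Cers1 was at -0.0011. With the medium spiny neuron covariate Sptlc2 was at -0.030, Kdsr at 0.014 and Cers4 at -0.10. With the oligodendrocyte covariate Kdsr was at 0.083, Cers4 at -0.23, Cers6 at -0.20 and Degs1 at 0.016. With the thalamus covariate Sptlc2 was at -0.15 and Kdsr at 0.014. Without DF-1037 and DF-1062 Sptlc2 was at -0.039, Kdsr at 0.024 and Cers4 at -0.15. Without the 4 mice of high thalamus score Sptlc1 was at 0.0041, Kdsr at 0.016, Cers1 at -0.016, Cers4 at -0.028 and Cers6 at -0.021. With each mouse left out the range was -0.041 to 0.017 for Sptlc1, -0.12 to 0.0047 for Kdsr, -0.079 to 0.084 for Cers1, -0.063 to 0.022 for Cers5 and -0.067 to 0.14 for Cers6. The difference in mean FPKM then ranged from -0.188 to 0.277 for Sptlc1, -0.417 to 0.672 for Cers1, -0.0048 to 1.64 for Cers4, -0.523 to 0.427 for Cers5 and -0.199 to 0.761 for Cers6.

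Between 1 and 2 members had an unadjusted p under 0.05 with a mouse left out, the second being Sptlc2 without WT-1063. Fam57b minus the segment median was 0.034 with the medium spiny neuron covariate and -0.047 without DF-1037 and DF-1062. The 17 segment genes past the adjusted threshold became 0 with the oligodendrocyte covariate, 11 with the thalamus covariate, 9 without DF-1037 and DF-1062, 0 without the 4 mice of high thalamus score, and 6 to 14 with a mouse left out (6 without DF-1018 or DF-1059, 7 without WT-1015 or WT-1061, 8 without WT-1041, 10 without DF-1062). The median log2 fold change of the 33 segment genes moved little: it was -0.95 with the oligodendrocyte covariate and -1.09 without the 4 mice, against -0.97, while the calls over all genes went from 20 to 1 and 3. The number of pathway genes past the unadjusted threshold went from 4 to 1 with the oligodendrocyte covariate, and that 1 was none of the 4. The number was 3 to 7 with a mouse left out (7 without DF-1037). The pairs of neighbouring members that passed numbered 0 to 3 with a mouse left out, where fewer mice raise the smallest p the test allows. Beyond that, the cause of these changes was not tested. The shares of the ceramide synthase classes kept their direction with counts in place of FPKM, without Cers1 and with each mouse left out.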

Other observations

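The thalamus and medium spiny neuron scores overlapped between the genotypes (exact permutation test, two-sided, p = 0.286 and 0.314). The remaining 5 marker lists did not separate the genotypes either. Mean log2 CPM of 8 astrocyte genes was 7.59 to 7.73 in WT and 7.52 to 7.76 in 16p11.2+/- mice, that of 6 microglia genes 4.57 to 5.05 and 4.13 to 4.92, and that of 5 endothelial genes 5.20 to 5.42 and 4.96 to 5.63. The 6 genes of cortical glutamatergic neurons ranged from 2.24 to 5.78 in WT and from 2.1 to 5.94 in 16p11.2+/- mice, and the 6 choroid plexus genes from 0.61 to 7.36 and from 1.44 to 3.17, with Kcnj13 at 0 counts in 2 mice. None of these 5 lists passed the exact permutation test (two-sided, p = 0.4 to 0.971).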
